A study of Mus musculus with 36 samples.

Results

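The genes that encode the proteasome, its assembly chaperones and its activators were followed across 36 mouse heart RNA-seq libraries. Members were all genes whose symbol begins with Psma, Psmb, Psmc, Psmd, Psme, Psmf or Psmg followed by a number, pseudogene symbols left out, with the row of highest mean kept for each symbol. This gave 48 genes of the 32750 symbols measured, from 49 rows, since Psmd14 has another row, of lower mean, for a shorter gene model. By role they are 8 alpha-ring and 7 constitutive beta-ring subunits of the 20S core, 4 inducible or thymic beta subunits, 5 ATPases and 11 other subunits of the 19S cap, 7 assembly chaperones, and 5 activators or inhibitors. The remaining member, Psmc3ip, matches by its symbol only: it encodes a factor of meiotic recombination and is described apart. Psmc5, an ATPase of the cap, was not analysed here.

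The proteasome degrades proteins that carry ubiquitin chains. Its 20S core is a barrel of alpha and beta rings whose proteolytic sites lie on Psmb5, Psmb6 and Psmb7, and interferon signalling exchanges these for Psmb8, Psmb9 and Psmb10 to form the immunoproteasome, which feeds peptides to MHC class I. The 19S cap binds ubiquitin, unfolds the substrate with its ATPases and opens the core, while PA28 (Psme1 with Psme2, or Psme3 alone) and PA200 (Psme4) are alternative caps that work without ubiquitin. In the heart the system turns over sarcomere proteins, and its capacity is held up by Nfe2l1 and Nfe2l2, transcription factors that induce subunit genes under stress.

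The libraries come from CD-1 mice and form 16 groups. Unoperated ventricle was taken from adults and at P0, P4 and P7, and operated ventricle at 1 and 7 days after sham surgery or after resection, all with 2 libraries a group. Cardiomyocytes isolated on Miltenyi columns were taken from unoperated hearts at P0 and P4 and from hearts 7 days after sham surgery or resection, with 3 libraries a group. Explants are dissociated adult cardiomyocytes kept for 0, 24, 48 or 72 h in culture, with 2 libraries a group. The labels name no age for the adults or at surgery, and do not say whether libraries of a group came from separate animals, so p-values measure only the spread between these libraries. Values are FPKM, fragments per kilobase of transcript scaled to the mapped fragments of a library, which allows levels of different genes to be compared, and differences are given on the log2(FPKM + 1) scale, which understates the change of low genes. A gene was called when limma gave a Benjamini-Hochberg adjusted p under 0.05 over all genes of the fit, two-sided.

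All libraries are labelled as cardiomyocytes, and all held cardiomyocyte transcripts, but markers of fibroblasts, endothelium, red cells and leukocytes were present too. The depth of each library is not given in the sources used here. In the isolated cells, the summed fibroblast markers ranged from 145 to 2335 FPKM and the erythroid sum reached 72157 FPKM in replicate 3 after resection. In the explants the cardiomyocyte sum went from 18752 and 14355 FPKM at 0 h to 2080 and 2504 FPKM at 72 h. In such bulk samples fewer cells of a type and less RNA per cell cannot be told apart. The operated ventricle libraries stood apart from the unoperated ones: 19 of the 48 members lay higher in all 8 operated than in all 8 unoperated libraries and 3 lay lower, while 10.0% and 13.9% of the genes tested in ventricle did so. Psma3 ran from 3.13 to 5.74 FPKM in unoperated and from 7.67 to 39.1 FPKM in operated ventricle, whereas the assembly chaperone gene Psmg3 ran from 4.53 to 8.03 FPKM and from 0.496 to 1.84 FPKM. Surgery and library preparation, which the labels describe as one of a pair of protocols without assigning them, cannot be told apart here, so tests set operated ventricle only against operated ventricle, and levels set beside those of other groups are a description.

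Most members were expressed everywhere: 41 had at least 1 FPKM in all 36 libraries. The highest means over all libraries belonged to the core subunits Psmb7 with 130 FPKM, Psmb4 with 120 FPKM and Psma7 with 119 FPKM. The lowest belonged to Psmb11 with 0.134 FPKM, the thymus-specific catalytic subunit, to Psma8 with 0.527 FPKM, the testis-specific alpha subunit, and to Psmb9 with 2.13 FPKM. Subunits that stand in one ring at equal numbers were not measured at equal levels. At P0 in ventricle Psma7 had 98.4 FPKM and Psma5 had 2.25 FPKM, 43.8 times less, and over the 16 groups the highest alpha subunit other than Psma8 was between 14.3 and 56.8 times the lowest, which was Psma5 or Psma3 each time. Psme2 is uncertain, since a pseudogene copy, Psme2b-ps, was listed at 17.5 to 117 FPKM while Psme2 itself had a mean of 6.83 FPKM.

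Group means spread least, on the log2(FPKM + 1) scale, for Psma8 (0.56), the proteasome inhibitor Psmf1 (1.02), Psmb11 (1.12), the cap subunit Psmd3 (1.31) and the chaperone Psmg4 (1.35). Psma8 and Psmb11 each reached 1 FPKM in only 2 libraries, and Psmb11 was at 0 in 16. The scale compresses such low values, so their rank does not show steady expression. Group means spread most for the activator Psme4 (3.58), the cap subunit Psmd11 (3.54), the alpha subunit Psma3 (3.46), Psmg3 (3.09) and the ATPase Psmc1 (2.95). Isolated cells 7 days after sham surgery were the lowest group for most members, Psme4, Psmd11 and Psma3 among them. The highest group was the 24 h explants for Psme4 and the 72 h explants for Psmd11 and Psmg3. It was sham-operated ventricle at day 1 for Psma3 and Psmc1.

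**Figure D1:**
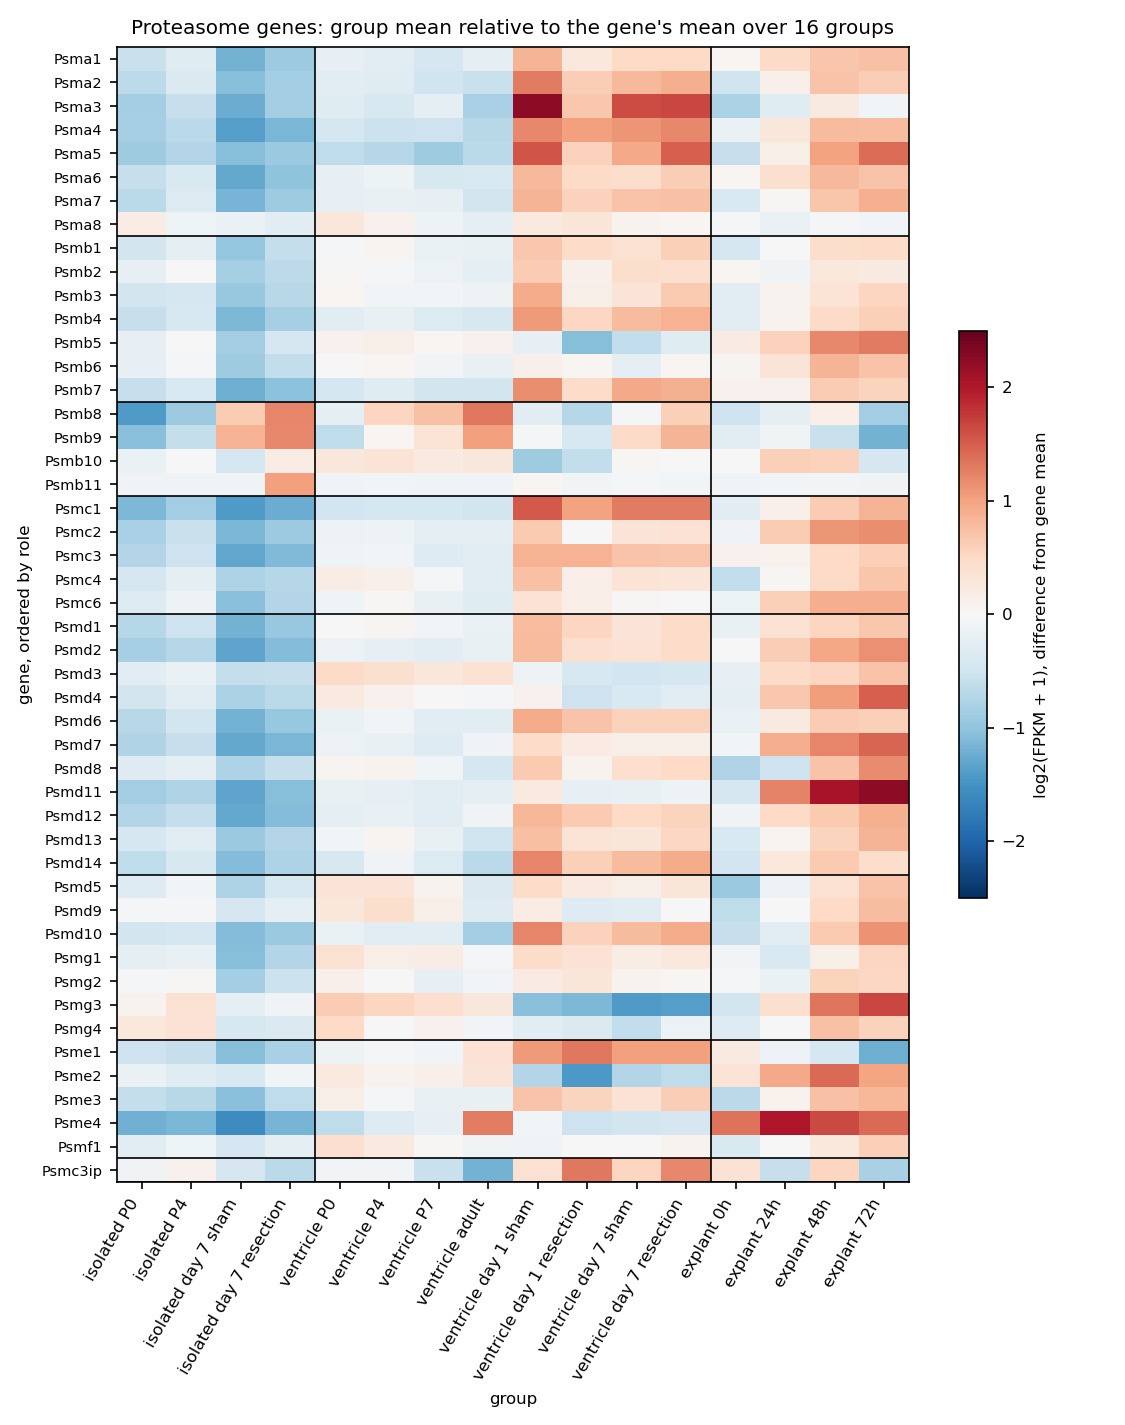
Mean log2(FPKM + 1) of each of the 48 members in the 16 groups, as the difference from that gene's own mean over the groups (red higher, blue lower), with horizontal lines between roles and vertical lines between isolated cells, ventricle and explants. Most core and cap genes are pale or blue in isolated cells and red in operated ventricle and late explants, while Psme1, Psme4, Psmb8, Psmb9 and Psmg3 follow other patterns.

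Between birth and adulthood the ventricle gained Psme4, Psmb8 and Psmb9 transcripts, while no constitutive beta subunit was called in either direction. Psme4, which encodes the PA200 cap, had 27.6 and 31.2 FPKM at P0, 40.5 and 33.8 FPKM at P4, 40.6 and 39.1 FPKM at P7, and 117 and 112 FPKM in adults. Both adult libraries lay above every younger one. The adult difference from P0 was 1.92 ± 0.13 (SE) with limma adjusted p = 1.54e-07, and it was called against P7 as well (1.49, adjusted p = 3.44e-06). The rise at P7 was 0.43 with limma adjusted p = 0.042, a call that was lost when any single P0 or P7 library was left out.

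Of the 3 immunoproteasome subunits, Psmb8 and Psmb9 rose as well. Psmb8 had 2.09 and 1.25 FPKM at P0 and 4.59 and 9.47 FPKM in adults, a difference of 1.54 ± 0.36 (limma adjusted p = 0.0028). Psmb9 had 0.752 and 0.433 FPKM at P0 and 3.10 and 5.07 FPKM in adults, a difference of 1.65 ± 0.34 (limma adjusted p = 0.0014). At P7 both genes lay above P0 without overlap, but neither passed the test (limma adjusted p = 0.099 for Psmb8 and 0.081 for Psmb9). Psme1, the alpha subunit of PA28, had 58.6 and 41.3 FPKM at P0 and 56.1 and 86.8 FPKM in adults. Its groups overlapped, and its call (0.50, limma adjusted p = 0.049) was lost without P0 replicate 2 or adult replicate 2. The third inducible subunit, Psmb10, had 24.2 and 17.6 FPKM at P0 and 18.0 and 23.7 FPKM in adults and was not called.

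These 4 genes were the members called higher in adults against P0, of 47 tested, while 13.4% of all genes tested were called higher. Another 8 members were called lower, against 43.6% of all genes. They included 5 of the 7 assembly chaperones: Psmd5, Psmd9, Psmd10, Psmg1 and Psmg4. Psmd5, which helps build the ATPase ring, had 14.0 and 10.3 FPKM at P0 and 7.52 and 6.63 FPKM in adults, and fell by 0.69 ± 0.15 (limma adjusted p = 0.0018). Psmd10, or gankyrin, had 10.1 and 8.56 FPKM at P0 and 5.83 and 5.08 FPKM in adults and fell by 0.67 ± 0.25 (limma adjusted p = 0.032). The ATPase Psmc4, the testis subunit Psma8 and Psmc3ip made up the rest, Psmc3ip with the largest decrease (-1.11, limma adjusted p = 0.0010). Psma8 had 1.03 and 0.694 FPKM at P0 and 0.320 and 0.258 FPKM in adults, near the limit of what was tested. The median member differed by -0.18 from P0 and the median gene by -0.36. Rescaling libraries by the median of ratios moved the median gene to 0.00 and the median member to 0.26, with 12 members called higher and 1, Psmc3ip, lower; quantile normalization gave 5 higher and the same 1 lower. The 4 increases were called under both. The number of decreases was 3 without P0 replicate 1, 4 without adult replicate 1 and 5 without adult replicate 2.

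Against P7, 1 of 47 members was called higher in adults, Psme4 (10.7% of all genes), and 3 were called lower, Psmc3ip, Psmd5 and Psmd9 (29.8% of all genes). Median-of-ratios scaling gave 9 higher and 0 lower and quantile normalization 2 higher and 0 lower. The decreases numbered 1 without either P7 library and 0 without adult replicate 2, and the increases 2 without adult replicate 1. At P4 against P0 limma called 0 members in either direction (0.580% and 0.769% of all genes), with 2 at an unadjusted p under 0.05, beside 1773 of 14306 genes. At P7 against P0 it called Psme4 higher and none lower (4.35% and 8.21% of all genes).

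As a share of each catalytic pair, summed in FPKM, Psmb8 was 5.53 and 4.53% of Psmb8 plus Psmb5 at P0, 9.01 and 10.9% at P4, 11.3 and 13.4% at P7, and 13.0 and 23.8% in adults. Psmb9 was 0.887 and 0.616% of its pair with Psmb6 at P0 and 4.49 and 7.01% in adults. Psmb10 was 20.4 and 17.5% of its pair with Psmb7 at P0 and 16.8 and 21.6% in adults. The constitutive partner Psmb5 had 35.7 and 26.4 FPKM at P0 and 30.8 and 30.3 FPKM in adults.

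Genes of MHC class I presentation and interferon response, read from a list of 22, moved in the same direction. Of 20 tested, 11 were called higher in adults against P0 and 0 lower. Over all genes the shares were 13.4% and 43.6%, to set beside these counts and those that follow. The list's median was 0.75 where that of all genes was -0.36. H2-K1, a class I heavy chain, had 10.0 and 7.63 FPKM at P0 and 25.3 and 38.2 FPKM in adults (1.72, limma adjusted p = 0.012). Gbp2, an interferon-induced GTPase, had 2.39 and 1.43 FPKM and then 6.50 and 6.95 FPKM (1.43, limma adjusted p = 2.95e-04). Leukocyte markers were higher as well, with 6 of 10 tested called and a summed level of 40.9 and 28.4 FPKM at P0 and 101 and 141 FPKM in adults. Erythroid markers went from 1379 and 1235 FPKM in sum to 3662 and 4239 FPKM, with 4 of 5 called higher. Fibroblast markers were mixed: 4 of 6 were called lower, but Dcn was called higher (0.94, limma adjusted p = 3.66e-04). The cardiomyocyte markers Ryr2 and Tnni3 were called higher, while Actc1, Myh6 and Tnnt2 were not called. The endothelial markers Cdh5 and Tie1 were called lower, while Emcn, Kdr and Tek were not called. Among smooth muscle and pericyte markers Rgs5 was called higher and Pdgfrb lower. The part of these cells in the proteasome values was not tested.

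**Figure D2:**
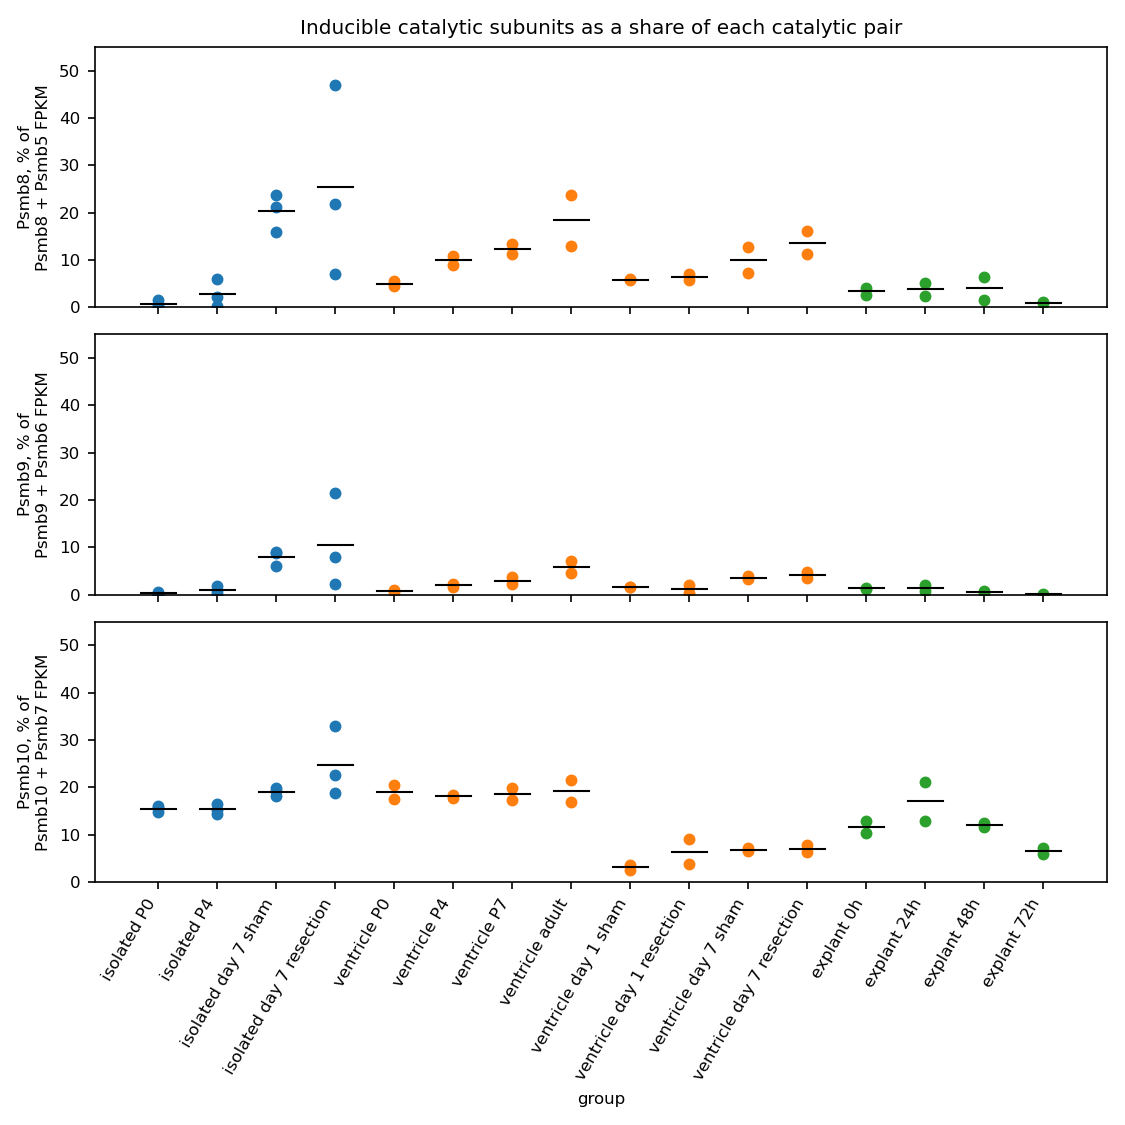
Psmb8, Psmb9 and Psmb10 as a percentage of the summed FPKM of each with its constitutive partner (Psmb5, Psmb6 and Psmb7), by group, with 1 point per library and a bar at the group mean; isolated cells are blue, ventricle orange and explants green. The shares of Psmb8 and Psmb9 run higher from P0 to adult ventricle, replicate 3 of the isolated resection group stands above all other libraries with 47.1% for Psmb8, and the 72 h explants hold at most 1.04% for Psmb8 and 0.149% for Psmb9.

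The promoters of the exchanged pair Psmb5 and Psmb8 are shown because Psmb8 was called higher in adults and Psmb5 was not. The windows were taken from RefSeq on build GRCm38.p6 (250 bases before the start site searched on both strands, with 40 members matched), and capitals mark the motif found. Psmb5, on the minus strand at chr14:54618009-54618067, holds TGACNNNGC, the core of the antioxidant response element to which Nfe2l1 and Nfe2l2 bind. Psmb8, on the plus strand at chr17:34198073-34198131, holds TTCNNNGAA, the core of the site bound by STAT factors.
Psmb5: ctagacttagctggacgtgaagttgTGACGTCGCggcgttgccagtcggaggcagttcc
Psmb8: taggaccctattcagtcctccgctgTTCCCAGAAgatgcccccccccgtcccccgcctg
The shares of members with a motif can be set beside those of all genes. TGACNNNGC was present in 5 of the 40 members (12.5%) and in 11.5% of all genes, and TTCNNNGAA in 2 members (5.0%) and in 8.13% of all genes. The core of the interferon-stimulated response element was present in 3 members (7.5%), which were Psmb3, Psmd4 and Psmd9, and in 3.46% of all genes. Psmb9, called higher in adults as well, held none of these motifs, and the other member with TTCNNNGAA was Psmg1, called lower in adults. A match describes letters in the window and does not show binding.

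In isolated cardiomyocytes, limma called 0 of 47 members at P4 against P0 in either direction (0.00761% of all genes higher and 0% lower). An unadjusted p under 0.05 was seen for 0 members and for 347 of the 13143 genes tested. Of the 47 members, 43 had a positive difference, and the median member differed by 0.19 where the median gene differed by 0.09. Erythroid markers differed as well, with sums of 21034, 20727 and 988 FPKM at P0 and 375, 1095 and 1670 FPKM at P4. The cap subunits other than ATPases summed to 289, 300 and 374 FPKM in the same P0 libraries and to 369, 388 and 324 FPKM at P4. The part of red cells in these differences was not tested. Psma7 had 67.1, 70.6 and 74.3 FPKM at P0 and 101, 101 and 70.3 FPKM at P4. Psme4 had 17.5, 20.01 and 21.5 FPKM at P0 and 24.4, 19.5 and 18.2 FPKM at P4, below the unoperated ventricle values at either age.

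Resection against sham surgery at day 7 gave no member call in isolated cells either (1.07% of all genes higher and 0.00761% lower). An unadjusted limma p under 0.05 was seen for 2 members and for 1681 of the 13143 genes tested. Among the immunoproteasome genes the resected libraries spread on both sides of the sham ones. Psmb8 had 2.82, 4.03 and 4.68 FPKM after sham surgery and 1.48, 4.13 and 27.7 FPKM after resection, and Psmb9 had 2.35, 3.43 and 5.09 FPKM and 1.08, 3.20 and 19.1 FPKM. Psmb10 showed the same library on top, with 11.8, 14.0 and 41.7 FPKM after resection and 10.7, 11.96 and 14.0 FPKM after sham surgery. In that library, replicate 3, Psmb8 made up 47.1% of its pair with Psmb5, Psmb9 21.6% and Psmb10 33.0%. The same library held the highest erythroid sum. Lung epithelial markers summed to 577, 173 and 1129 FPKM in resection replicates 1, 2 and 3, against at most 2.60 FPKM after sham surgery. Replicate 1, with the second highest lung sum, had the lowest Psmb8 share of the resected libraries, 7.11%, beside 21.8% in replicate 2. Leukocyte markers summed to 23.5, 20.1 and 48.5 FPKM after resection and to at most 13.2 FPKM after sham surgery, with Lyz2 alone called higher. Lyz2 made up most of this sum after resection, with a mean of 22.1 FPKM of 30.7 FPKM. The pan-leukocyte gene Ptprc had means of 0.630 FPKM after resection and 0.296 FPKM after sham surgery. Endothelial markers summed to 113, 305 and 12.2 FPKM after resection and to at least 317 FPKM after sham surgery, with none called. The part of these cells was not tested.

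Psmb11, the catalytic subunit made by thymic cortical epithelium, was listed at 0 in all 3 sham libraries and at 0.0144, 1.95 and 2.41 FPKM after resection. No library outside replicates 2 and 3 of this group exceeded 0.102 FPKM. The difference did not pass (1.12, limma adjusted p = 0.16), and Psmb11 entered the test only through these 2 libraries. Thymic epithelial genes, listed after this was seen, were present in the same libraries. Prss16, a thymic serine protease, had 1.06, 30.0 and 17.1 FPKM after resection and at most 0.0472 FPKM after sham surgery. Foxn1, the transcription factor that defines thymic epithelium, had 0, 0.798 and 1.17 FPKM after resection and 0 in each sham library. Ccl25, a chemokine of that epithelium, had 1.82, 22.5 and 17.4 FPKM after resection and at most 0.875 FPKM after sham surgery. Of the thymic epithelial list, Ccl25, Krt8 and Prss16 were called higher (1.07% of all genes), while Cd83, Ctsl and Tbata were not and Foxn1 was untested. Ccl25, Ctsl and Krt8 were also called higher in the 72 h explants. Thymocyte markers, all untested, summed to 1.46, 21.9 and 3.15 FPKM after resection and to at most 1.82 FPKM after sham surgery. Like Psmb11, the thymic genes Prss16 and Tbata entered the test only with the resected libraries. So did the lung epithelial markers Scgb1a1, Sftpa1, Sftpb, Sftpc and Sftpd. The differences of all these genes are thus no independent support. The part of either tissue in the proteasome values was not tested.

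In ventricle 1 day after surgery, some core and cap genes were lower in resected than in sham-operated hearts. Of 47 members, 11 were called lower (8.88% of all genes) and 1 higher, Psmc3ip (1.38% of all genes). A fit of the compared groups alone called 0 in either direction, and a fit of operated ventricle alone called 2 lower and 0 higher. Psma3 had 30.0 and 39.1 FPKM after sham surgery and 7.67 and 15.9 FPKM after resection, a difference of -1.54 ± 0.24 (limma adjusted p = 0.0033). Psma5 had 12.3 and 15.8 FPKM and then 5.74 and 7.31 FPKM (-0.999 ± 0.23, limma adjusted p = 0.020). Psmb5, which carries the chymotrypsin-like site, had 24.5 and 24.6 FPKM and then 12.2 and 13.9 FPKM (-0.86 ± 0.21, limma adjusted p = 0.024). The groups did not overlap for any of the 3.

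By role, the decreases covered 3 of 8 alpha subunits (Psma2, Psma3, Psma5), 2 of 7 constitutive beta subunits (Psmb3, Psmb5) and 3 of 5 ATPases (Psmc1, Psmc2, Psmc4). They also covered 1 of 11 other cap subunits (Psmd11), 1 of 7 chaperones (Psmd9) and the activator Psme4. Psme4 had 43.0 and 45.1 FPKM after sham surgery and 34.1 and 30.3 FPKM after resection (-0.44 ± 0.13, limma adjusted p = 0.044). Psme1, the PA28 alpha subunit, had 118 and 111 FPKM and then 128 and 143 FPKM and was not called. No inducible subunit was called: Psmb8 had 1.49 and 1.54 FPKM and then 0.912 and 0.850 FPKM, and Psmb10 had 9.98 and 7.55 FPKM and then 10.4 and 10.7 FPKM. Psmc3ip had 4.15 and 6.75 FPKM and then 10.4 and 12.03 FPKM (0.95, limma adjusted p = 0.022). The call of Psme4 was lost without any 1 of the 4 libraries, and that of Psmc3ip without sham replicate 1 or resection replicate 1.

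The median member differed by -0.35 and the median gene by -0.16. Under the median-of-ratios scaling the median gene stood at 0.00, the median member at -0.15, and 4 members were called lower; Psma2, Psma3 and Psma5 were called lower under that scaling and under quantile normalization. The number of decreases ranged from 1 to 21 when single day 1 libraries were left out: 3 and 1 without sham replicate 1 and 2, and 1 and 21 without resection replicate 1 and 2. The 2 resected libraries were unlike each other, with a summed constitutive beta ring of 492 and 797 FPKM against 866 and 884 FPKM after sham surgery. Leukocyte markers moved in the same direction, with 8 of 10 tested called lower and summed levels of 99.1 and 163 FPKM after sham surgery and 34.8 and 36.8 FPKM after resection; their part was not tested.

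At day 7 after surgery limma called 0 of 47 members in either direction (0.147% of all genes higher and 0.00699% lower). An unadjusted p under 0.05 was seen for 3 members and for 1556 of the 14306 genes tested. Psma3 had 24.2 and 20.7 FPKM after sham surgery and 22.4 and 23.3 FPKM after resection. Psmb5 had 16.4 and 20.2 FPKM and then 29.9 and 17.3 FPKM, and Psmb8 had 1.29 and 2.94 FPKM and then 5.73 and 2.20 FPKM, with overlap in both. The change of the resection effect from day 1 to day 7 was tested as an interaction. It was called positive for 6 of 47 members, Psma2, Psma3, Psma5, Psmb3, Psmb5 and Psmd9, and negative for none (5.69% and 0.245% of all genes). The difference of effects was 1.57 ± 0.34 for Psma3 (limma adjusted p = 0.022), 1.56 ± 0.32 for Psma5 (adjusted p = 0.018) and 1.17 ± 0.30 for Psmb5 (adjusted p = 0.038). The median member differed by 0.50 and the median gene by 0.27. Neither scaling alternative kept any of these 6 calls, and the count ranged from 0 to 21 with single libraries left out. The lowest, 0, came without day 1 sham replicate 2 or day 7 resection replicate 1, and the highest, 21, without day 1 resection replicate 2. It was 3 without day 1 sham replicate 1, 2 without day 7 sham replicate 2, and 1 without day 1 resection replicate 1 or day 7 sham replicate 1. Leukocyte markers had 8 of 10 called positive in the same test. Lung epithelial markers summed to 213 and 92.8 FPKM at day 7 after resection and to 2.47 and 25.2 FPKM after sham surgery; Sftpb and Sftpd on that list entered the test only through the resected libraries, and the part of these cells was not tested.

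**Figure D3:**
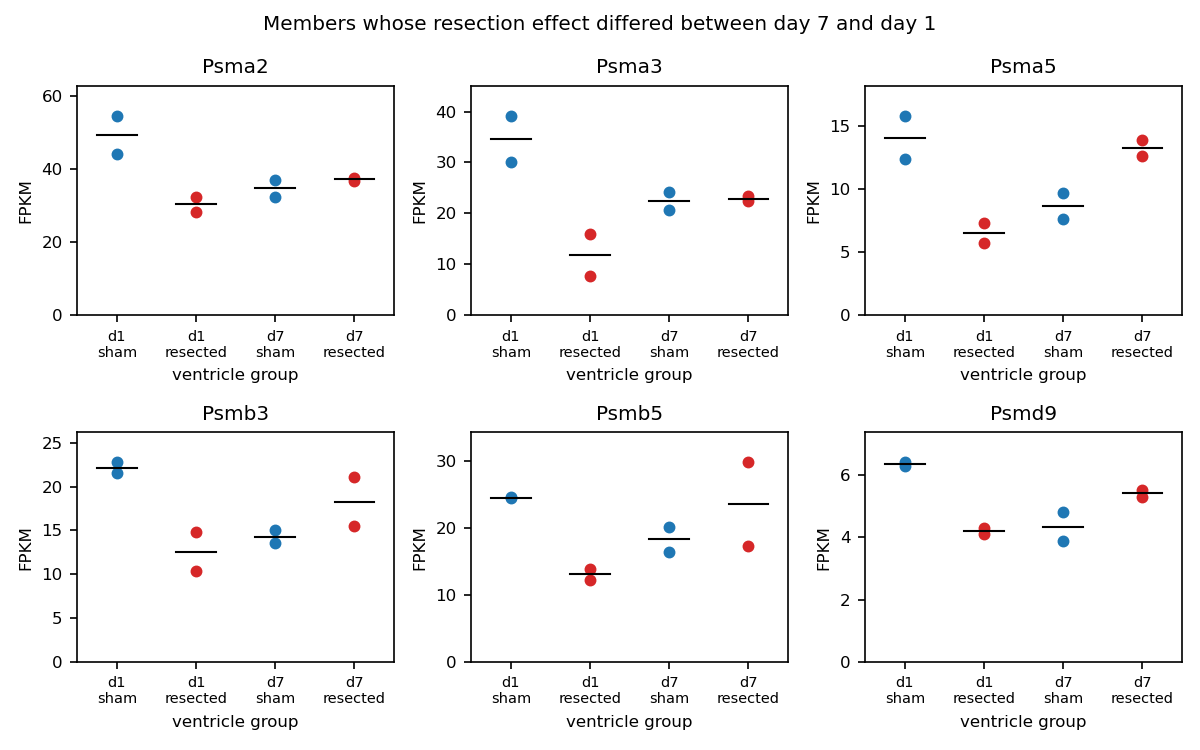
FPKM of the 6 members whose resection effect differed between day 7 and day 1 in ventricle, with 1 point per library (blue sham, red resected) and a bar at the mean of 2 libraries; d1 and d7 are days after surgery. At day 1 both resected libraries lie below both sham libraries for each gene, while at day 7 the resected means exceed the sham means.

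In cultured adult cardiomyocytes most proteasome genes were called higher by 48 h. Of the 48 members, 26 had means that were higher at each later time, as did 40.6% of the genes tested, and 1, Psme1, had means that were lower at each, as did 8.59%. limma called 5 of 46 members higher than 0 h at 24 h (15.4% of all genes), 29 at 48 h (35.0%) and 33 at 72 h (46.8%). It called 0 lower at 24 h (2.55% of all genes), 1 at 48 h (7.18%) and 2 at 72 h (9.07%). Libraries with the same replicate number deviated together in the explants, and with the replicate number as a block the count at 24 h was 19 of 46 higher, beside 33.6% of all genes. Without the block, it was 1 when either 0 h library was left out and 0 when either 24 h library was.

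The largest gain among members at 72 h was that of Psmd11, a scaffold subunit of the lid of the cap. It had 18.4 and 16.2 FPKM at 0 h, 62.7 and 51.4 FPKM at 24 h, 113 and 89.3 FPKM at 48 h, and 123 and 104 FPKM at 72 h. Every later library lay above both at 0 h, and the difference was 1.66 ± 0.22 at 24 h (limma adjusted p = 0.0096) and 2.64 ± 0.22 at 72 h (limma adjusted p = 0.00038). Psmd4, a ubiquitin receptor, had 40.7 and 33.6 FPKM at 0 h and 132 and 120 FPKM at 72 h (1.74, limma adjusted p = 0.00093). Psmd7, a lid partner of the deubiquitinase Psmd14, had 50.3 and 49.3 FPKM and then 138 and 153 FPKM (1.53, limma adjusted p = 0.00097). All 11 cap subunits other than ATPases were called higher at 72 h (46.8% of all genes), and their median was 1.16 where that of all genes was 0.76. Of these, only Psmd4, Psmd7 and Psmd11 were called under both median-of-ratios scaling and quantile normalization as well.

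Among the ATPases 4 of 5 were called higher at 72 h, from 1.04 for Psmc6 to 1.32 for Psmc4, and Psmc3 was called only with the replicate block (0.50, limma adjusted p = 0.014). Over all genes 46.8% were called higher at 72 h, a share to set beside this count and those that follow. All 7 alpha subunits tested were called higher, from 0.67 for Psma6 to 1.97 for Psma5, which had 2.49 and 2.21 FPKM at 0 h and 18.5 and 7.86 FPKM at 72 h. Of the constitutive beta subunits 4 of 7 were called higher. Psmb5 had 35.7 and 29.8 FPKM at 0 h and 77.3 and 65.1 FPKM at 72 h (1.10, limma adjusted p = 0.0050), and Psmb6 had 79.8 and 79.6 FPKM and then 127 and 124 FPKM (0.65, limma adjusted p = 0.018). Psmb7 had 115 and 147 FPKM and then 164 and 196 FPKM and was called only with the replicate block (0.46, limma adjusted p = 0.023), as was Psmb3 (0.83, adjusted p = 0.0060). Of the chaperones 5 of 7 were called higher, led by Psmg3 with 3.80 and 1.68 FPKM at 0 h and 23.0 and 9.07 FPKM at 72 h (2.12, limma adjusted p = 0.014); this call was lost without 0 h replicate 2 or 72 h replicate 1. The other two, Psmg1 (0.61, limma adjusted p = 0.0079) and Psmg2 (0.57, adjusted p = 0.012), were called only with the replicate block.

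**Figure D4:**
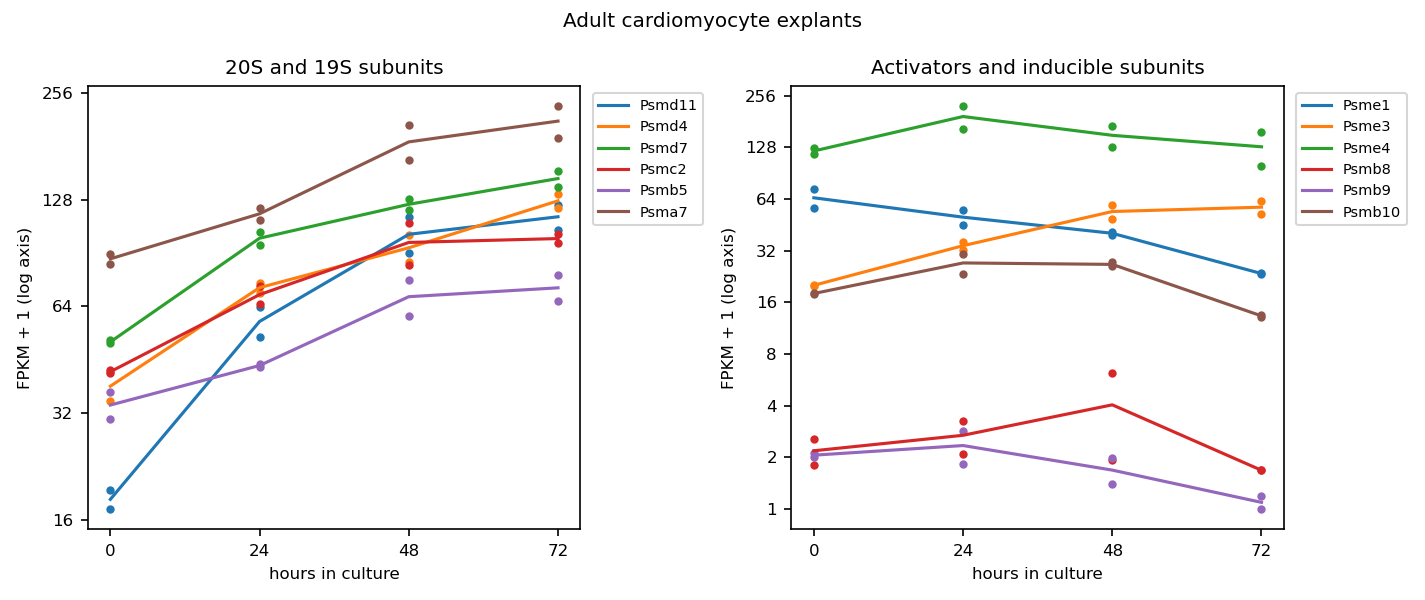
FPKM + 1 on a log axis against hours in culture for 6 core and cap subunits (left) and 6 activators and inducible subunits (right), with 1 point per library and lines through the means of 2 libraries. Psmd11 starts lowest on the left at 18.4 and 16.2 FPKM and passes 100 FPKM at 72 h in both libraries, while on the right Psme3 and Psme1 cross between 24 and 48 h.

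The PA28 activators went apart in culture. Psme1 had 55.8 and 72.4 FPKM at 0 h, 44.0 and 54.4 FPKM at 24 h, 40.3 and 38.6 FPKM at 48 h, and 22.4 and 22.7 FPKM at 72 h, and fell by 1.46 ± 0.22 at 72 h (limma adjusted p = 0.0018). Psme3, whose product forms nuclear PA28 by itself, had 19.2 and 18.99 FPKM at 0 h and 51.4 and 61.4 FPKM at 72 h, a gain of 1.51 ± 0.20 (limma adjusted p = 0.0014). Neither pair of groups overlapped. Psme2, uncertain for its pseudogene, had 6.76 and 9.37 FPKM at 0 h and 12.03 and 13.9 FPKM at 72 h and was called at 48 h only, or at 72 h too with the replicate block (0.64, limma adjusted p = 0.025). The inhibitor Psmf1 had 6.16 and 5.82 FPKM at 0 h and 14.7 and 11.0 FPKM at 72 h (0.97, limma adjusted p = 0.0081), and with the replicate block it was called at 48 h too (0.63, limma adjusted p = 0.017). Psme4 had 116 and 126 FPKM at 0 h and 99.1 and 157 FPKM at 72 h, and was called at no time without the replicate block; with it, the 24 h values of 164 and 222 FPKM were called higher (0.65, limma adjusted p = 0.015).

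The inducible subunits varied over time, and without the replicate block none was called higher. Psmb9 had 0.995 and 1.12 FPKM at 0 h and 0 and 0.184 FPKM at 72 h (-0.92, limma adjusted p = 0.033), a call that was lost without 0 h replicate 1 or either 72 h library. Psmb8 had 1.55 and 0.814 FPKM at 0 h, 2.27 and 1.10 FPKM at 24 h, 5.16 and 0.925 FPKM at 48 h, and 0.679 and 0.681 FPKM at 72 h, and was not called. Psmb10 had 17.2 and 16.8 FPKM at 0 h, 29.8 and 22.5 FPKM at 24 h, 26.4 and 24.9 FPKM at 48 h, and 12.5 and 12.1 FPKM at 72 h, so its libraries lay above those of 0 h at 24 and 48 h and below them at 72 h. It was called only with the replicate block, at 0.58 (limma adjusted p = 0.023) for 24 h, 0.56 (adjusted p = 0.016) for 48 h and -0.43 (adjusted p = 0.037) for 72 h. As shares of the catalytic pairs at 72 h, Psmb8 stood at 0.870 and 1.04%, Psmb9 at 0 and 0.149%, and Psmb10 at 7.10 and 5.84%. Psmc3ip had 6.44 and 4.24 FPKM at 0 h and then 6.62 FPKM in replicate 2 at 72 h, where replicate 1 was listed at practically 0.

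The explant counts depended on the scaling of the libraries. FPKM put the median gene at 0.76 and the median member at 0.92 at 72 h. Under median-of-ratios scaling these were 0.04 and 0.03, and 5 members were called higher; under quantile normalization they were 0.14 and 0.45, with 10 called higher. Of the 33 genes called, 8 had a negative difference under the first scaling and 1 under the second. Psma5, Psmd4, Psmd7, Psmd11 and Psme3 were called higher, and Psmb9 and Psme1 lower, under all 3. The count at 48 h was 15 without 0 h replicate 1 and 6 without 48 h replicate 1. The count at 72 h was 21 without either 0 h replicate 1 or 72 h replicate 1. The summed leukocyte markers went from 2.84 and 2.38 FPKM at 0 h to 136 and 84.2 FPKM at 72 h. Cd68, a lysosomal protein of macrophages, made up most of this with a mean of 0.739 FPKM and then 98.6 FPKM, and Csf1r and Lyz2, the other 2 of 3 tested, were called higher as well. The pan-leukocyte gene Ptprc had means of 0.0654 and 0.0236 FPKM, Cd52 was at 0 at 72 h, and the other 7 of the 12 markers found stayed below 1 FPKM in mean at both times. Of the other lists, 4 of 5 cardiomyocyte and 3 of 5 endothelial markers were called lower (9.07% of all genes). The smooth muscle and pericyte markers Acta2 and Rgs5 and the erythroid marker Hbb-b2 were called lower too. The fibroblast markers Col1a1 and Col3a1 were called higher (46.8% of all genes), while Dcn and Dpt of that list were not called. The part of these cells was not tested.

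**Figure D5:**
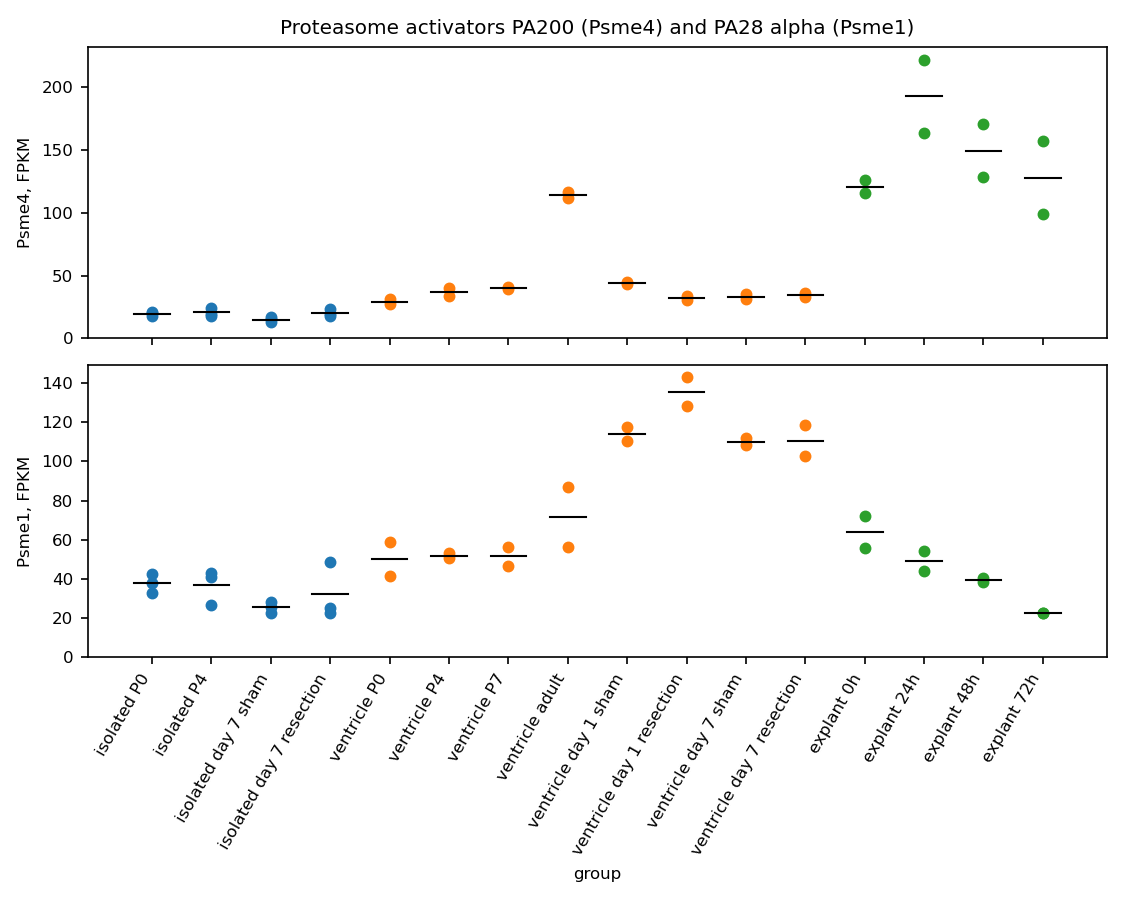
FPKM of the activator genes Psme4 (PA200) and Psme1 (PA28 alpha) in the 16 groups, with 1 point per library and a bar at the group mean; isolated cells are blue, ventricle orange and explants green. Psme4 lies at 99.1 FPKM or more in adult ventricle and all explants and at 45.1 FPKM or less elsewhere, while the means of Psme1 are highest in operated ventricle and lowest in the 72 h explants.

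Partners and regulators outside the proteasome symbols were read from a list of 33 genes, of which 27 were found. In the explants 20 of 26 tested were called higher at 72 h and 0 lower (46.8% and 9.07% of all genes), and their median was 1.36 beside 0.76 for all genes. Nfe2l2, the stress-responsive activator of subunit genes, had 15.0 and 5.86 FPKM at 0 h and 48.1 and 36.7 FPKM at 72 h (2.04, limma adjusted p = 0.010). Ubb, a polyubiquitin gene, had 50.2 and 28.9 FPKM and then 246 and 125 FPKM (2.17, limma adjusted p = 0.0069). Pomp, the chaperone that matures the core, had 62.1 and 67.5 FPKM and then 125 and 131 FPKM (0.97, limma adjusted p = 0.0065). Nfe2l1 was not analysed here. In adults against P0, 1 of 27 partners was called higher and 9 lower, beside 13.4% and 43.6% of all genes. Nfe2l3, a relative of Nfe2l1 and Nfe2l2, had the largest decrease there, from a mean of 1.89 FPKM to 0.185 FPKM. At day 1 after resection 4 of 27 were called lower (8.88% of all genes), led by Ngly1 (-0.56, limma adjusted p = 0.025), the enzyme that processes Nfe2l1 for activity.

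In the MHC class I and interferon list, the explants at 72 h had 4 of 18 tested called higher and 2 lower, beside 46.8% and 9.07% of all genes. H2-K1 had 8.14 and 6.15 FPKM at 0 h and 68.2 and 59.8 FPKM at 72 h (3.004, limma adjusted p = 0.0022). Irf1, the interferon-induced activator of Psmb8 and Psmb9, had 38.5 and 37.7 FPKM and then 5.90 and 4.78 FPKM (-2.63, limma adjusted p = 2.71e-04).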

How the data were processed

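The authors deposited 1 table of FPKM per gene model (36128 models), for which Cufflinks 1.2.1, Cuffdiff, TopHat 1.3.2 and Bowtie 0.12.7 were named, with build mm9, per the submitters' processing notes. The annotation, read depths and each library's preparation (an earlier protocol or a TruSeq kit, per the labels' protocols) are not given in the sources used here, so no counting intervals can be had. FPKM totals ran from 422576 to 684130. From these values log2(FPKM + 1) was tested with limma 3.58.1 in R 4.3.3 (group means, variance trend), separately for isolated cells (13143 genes), ventricle (14306) and explants (12246), over genes with at least 1 FPKM in at least 2 libraries. Of the members, Psma8 was untested in isolated cells, Psmb11 in ventricle, and both in explants. Figures used Matplotlib 3.10.9. The scripts were tested on simulated data.

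Members and lists were chosen with earlier results of these data known. Thymic lists and fits on unoperated or operated ventricle alone were added later. Named were the catalytic pairs, activators, Psmf1, Psma8, Psmb11, Nfe2l2 and Pomp, the 3 largest called changes each way per comparison, the extremes of mean (3) and of range (5), and the largest called changes of other lists; further genes were chosen after their values were seen. Fits had no replicate block. In explants same-numbered libraries deviated together (6 distinct correlations of 0.385 to 0.617), so blocked values are given there where they change a count by over 1.5 times or the call of a gene described.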

Additional observations from a re-analysis of the deposited data

Results flagged for a closer look

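For 6 proteasome genes the resection effect in ventricle differed between day 7 and day 1 by limma's test of the difference itself, with Benjamini-Hochberg adjustment over 14306 genes. The day 7 effect minus the day 1 effect on the log2(FPKM + 1) scale was 1.57 for Psma3 (adjusted p = 0.022), 1.56 for Psma5 (adjusted p = 0.018) and 1.17 for Psmb5 (adjusted p = 0.038). It was 1.11 for Psmb3 (adjusted p = 0.031), 0.78 for Psma2 (adjusted p = 0.033) and 0.77 for Psmd9 (adjusted p = 0.028). At day 1 both resected libraries lay below both sham libraries for each of the 6 genes. None of the 6 was called under either rescaling, in the fit of the compared groups alone or in that of operated ventricle alone, and the count ranged from 0 to 21 when single libraries were left out. In the same test 8 of 10 leukocyte markers were called positive, and the summed lung epithelial markers were 213 and 92.8 FPKM at day 7 after resection against 2.47 and 25.2 FPKM after sham surgery; their part was not tested.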

How the results depend on the processing

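Counts are of members called, and the cause of each change was not tested. Median-of-ratios scaling gave 12 higher and 1 lower in adults against P0, 9 and 0 against P7, 4 lower at day 1 after resection, 0 for the difference between days, and 1, 3 and 5 higher and, at 72 h, 4 lower in explants; Psmb6 at 72 h turned to -0.27. Quantile normalization gave 1 lower in adults against P0, 2 higher and 0 lower against P7, 3 lower at day 1, 0 for the difference, and 3, 7 and 10 higher in explants. With no filter on low values there were 5 lower in adults against P0, 0 higher and 5 lower at day 1, 3 for the difference, and 0 and 1 lower at 48 and 72 h. A single fit over all 36 libraries gave 1 higher in isolated cells after resection, 0 higher at P7, 2 higher and 5 lower in adults against P0, 0 lower against P7, 0 higher and 3 lower at day 1, 1 for the difference, 16 higher at 24 h and 1 lower at 72 h. Fits of the compared groups alone gave 2 higher at P7, 8 lower in adults against P7, 0 in either direction at day 1, 0 for the difference, 1 higher at 24 h, and 0 and 1 lower at 48 and 72 h. Without a variance trend there were 0 higher at P7 and 7 lower at day 1. Unoperated ventricle alone, added after seeing the data, gave 3 higher and 1 lower at P7 and 8 lower in adults against P7. Operated ventricle alone, likewise added, gave 0 higher and 2 lower at day 1 and 0 for the difference.

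With the replicate number as a block, 19 members were higher at 24 h; no other count moved by over 1.5 times, though calls of single genes were gained in explants and Psme1 lost its adult call (adjusted p = 0.060). Same-numbered libraries correlated from -0.580 to 0.421 in isolated cells and from -0.135 to 0.182 in ventricle. With 2 or 3 libraries a group, these values cannot show whether more than a number is shared there. Leaving out single libraries gave 0 to 1 higher in isolated cells after resection, 0 to 0 at P7, 3 to 4 higher and 3 to 6 lower in adults against P0, and 1 to 2 higher and 0 to 2 lower against P7. It gave 0 to 1 higher and 1 to 21 lower at day 1, 0 to 21 for the difference, 0 to 1 higher at 24 h, 6 to 23 higher and 0 to 1 lower at 48 h, and 21 to 28 higher and 1 to 2 lower at 72 h. A pseudocount of 0.1, single zeros taken as missing, and summed rows of a symbol moved none of these counts by over 1.5 times. With 2 or 3 libraries a group and unknown depth, a missed call does not show that levels were alike.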
